A study of Mus musculus with 32 samples.

Results

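The 20 libraries of the 2 aneuploid genotypes in this series were pooled into 1 group and compared with the 12 libraries of euploid animals labelled +/+. The pooled group holds 10 libraries labelled Ts65Dn;Df(17)2 and 10 labelled Dp(16)1/Df(16)8, so that the comparison uses all 32 libraries. The genotype label alone decided membership, and no measured value entered it. Every library was made from total RNA of the cerebral cortex of mice at 6 weeks of age, after removal of ribosomal RNA, and is titled with an animal number. By label, +/+ has 6 females and 6 males and each aneuploid genotype has 5 females and 5 males. Strain background, litter and breeding are not given in the sources used here.

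As background, Ts65Dn mice have a small supernumerary chromosome built from distal chromosome 16, with orthologues of many human chromosome 21 genes, and the centromeric end of chromosome 17. Dp(16)1 places an additional copy of a longer stretch of the same part of chromosome 16 in tandem within the chromosome. Df(17)2 and Df(16)8 are deficiencies that remove 1 copy of the genes that the Ts65Dn chromosome and the duplication, respectively, do not have in common. Both genotypes therefore carry the same genes of chromosome 16 in an additional copy, and differ in whether that copy sits on a chromosome of its own. A gene present in an additional copy with no other regulation has a fold of 1.5 over euploid. Pooling asks which changes go with the shared additional genes in either arrangement, with the largest number of animals.

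Between 5795479 and 11189548 counts were assigned per library (median 8049527 for aneuploid animals, 7547437.5 for +/+). The mitochondrial genome contributed 2.55% to 3.58% of them in the aneuploid group against 2.32% to 3.61% in +/+. A library of the Dp(16)1/Df(16)8 group labelled female (replicate 2) had 14 counts of Xist, the RNA that silences an X chromosome in females, with 281 counts of Eif2s3y and 696 of Ddx3y, which lie on the Y chromosome. Without that library 603 genes in place of 623 passed outside the segments, and 68 in place of 67 in the chromosome 16 segment. No 2 libraries of a genotype agreed within sampling noise (the lowest chi-square per degree of freedom was 2.54).

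The level of striatal markers differed widely between libraries. It is given here as a striatal score, the mean log2 CPM (counts of a gene scaled to the library's size) of 20 markers of striatal projection neurons, a cell type that cortex proper lacks, among them Drd1, Drd2, Penk and Ppp1r1b. The score ran from 2.90 through a median of 6.30 to 6.87 in the aneuploid group and from 2.68 through 4.47 to 6.92 in +/+. The ranges of the groups overlap almost entirely, while the medians lie apart. The means were 5.80 ± 1.11 (SD, n = 20) and 4.89 ± 1.43 (SD, n = 12), a difference of 0.92 that did not pass a two-sided permutation test (p = 0.0518, 100000 permutations). With the median over the markers in place of the mean, the difference was 0.88 and passed (p = 0.0454). All 20 markers had positive log2 fold changes (median 0.62) and none passed (edgeR; 1 at an unadjusted p under 0.05, 0 by DESeq2 and 0 by limma voom). Values with this score as a term are therefore given beside the gene groups below where calls depended on it. A call lost with that term does not by itself show that the change went with the score, so the log2 fold changes with and without it are given as well. In bulk tissue, fewer cells of a type and less RNA per cell cannot be told apart.

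**Figure D1:**
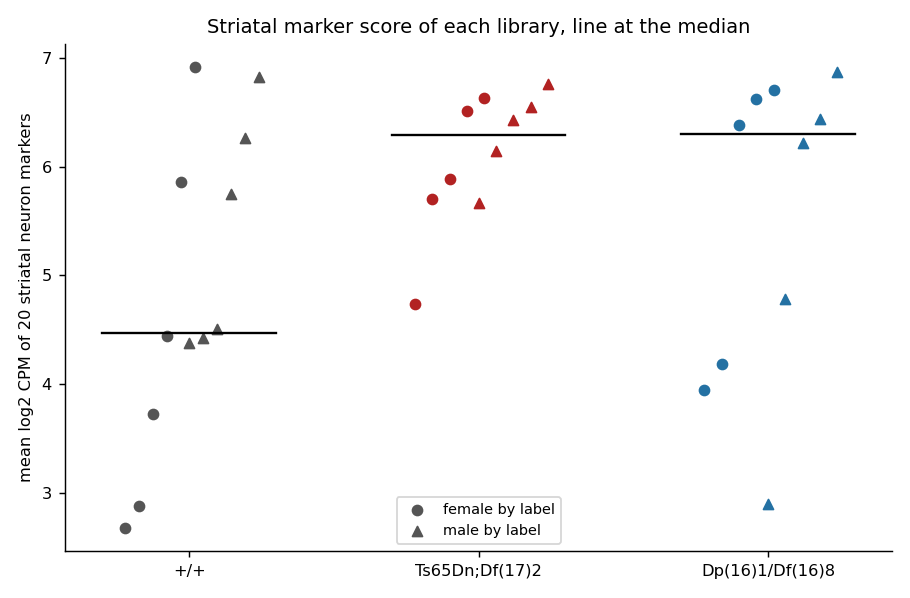
Striatal marker score of each library (mean log2 CPM of 20 markers, y axis) by genotype, with circles for females and triangles for males by label and a line at the median. The +/+ libraries span 2.68 to 6.92 with a median of 4.47, and the aneuploid libraries span 2.90 to 6.87 with a median of 6.30.

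The genes of the shared chromosome 16 segment were raised by about the additional copy. The segment runs from Mrpl39 to Zbtb21 (GRCm38 chr16:84717576-97962622). Of its 77 tested genes 67 were higher in the aneuploid group (87% called, edgeR's quasi-likelihood F test at an adjusted p of 0.05), none was lower, and all 77 had a fold above 1. The median fold was 1.51, with quartiles of 1.421 and 1.597. Taken per animal as the median over the segment, the fold ran from 1.47 to 1.55 in the aneuploid group and from 0.975 to 1.04 in +/+, so that the groups were far apart. The means were 1.51 ± 0.0254 (SD, n = 20) and 1.01 ± 0.0207 (SD, n = 12), and the permutation p of 1e-05 is the smallest that 100000 permutations can give. The fold was 1.502 ± 0.0253 (SD, n = 10) in Ts65Dn;Df(17)2, where 62 genes passed (80.5%), and 1.516 ± 0.0245 (SD, n = 10) in Dp(16)1/Df(16)8, where 55 passed (71.4%). Set directly against each other, the 2 genotypes differed in 0 of the 77 genes (0%, edgeR), with 4 at an unadjusted p under 0.05 (5.19%). Over the whole table limma voom called 7 genes between them and edgeR 8, which are described further on.

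Among the segment's genes with known roles in neurons, App encodes the amyloid precursor protein. Its level was 1257, 1454 and 1605 CPM (lowest, median, highest) in +/+ and 1855, 2036 and 2352 CPM in the aneuploid libraries. The groups do not overlap, and the fold was 1.44 (95% interval 1.37 to 1.51). Dyrk1a, a protein kinase studied in cognition, ran at 118.7, 128 and 134 CPM in +/+ and 169, 193 and 207 CPM in the aneuploid libraries, again with no overlap and with a fold of 1.48 (1.42 to 1.55). The phosphatase Synj1 and the scaffold Itsn1, both of synaptic vesicle endocytosis, had log2 fold changes of 0.56 (SE 0.05) and 0.50 (SE 0.03). Rcan1, an inhibitor of calcineurin, had a fold of 1.445 (1.339 to 1.559), and Tiam1, a Rac exchange factor, a log2 fold change of 0.79 (SE 0.10). Over the whole segment 37 of 77 genes (48.1%) had every aneuploid library above every +/+ library.

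The receptor genes of the interferon and interleukin 10 family lie side by side in the segment, and all 4 passed. Ifnar1, a chain of the type I interferon receptor, ran at 48.5, 52.4 and 55.2 CPM in +/+ and at 72.0, 80.3 and 89.96 CPM in the aneuploid libraries, a fold of 1.54 (1.47 to 1.61). Its partner chain Ifnar2 had a fold of 1.58 (1.45 to 1.72) and Ifngr2, of the interferon gamma receptor, one of 1.42 (1.29 to 1.56). Il10rb, shared by the receptors of interleukin 10 and related cytokines, had a fold of 1.38 (1.15 to 1.66, adjusted p = 0.04). Il10rb was the least certain of them: it passed in 16 of the 32 fits that each left out 1 library.

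Not every gene of the segment sat at 1.5. The 95% interval of the fold held 1.5 for 53 genes, lay above it for 12 and below it for 12. Son, an RNA splicing factor, was above it without overlap between the groups: 486.8, 506.9 and 557.7 CPM in +/+ against 783, 852 and 925 CPM, a fold of 1.67 (1.61 to 1.73). The highest folds were those of Ripk4, a kinase, at 2.06 (1.48 to 2.89), Cbr3, a carbonyl reductase, at 1.986 (1.462 to 2.696), and Pcp4, a calmodulin-binding peptide, at 1.97 (1.51 to 2.57). Pcp4 and Cbr3 moved with the striatal score: with the score as a term their log2 fold changes went from 0.98 to 0.64 and from 0.99 to 0.63, and Ripk4 went from 1.05 to 0.90 (adjusted p = 0.056). The lowest folds were those of Prdm15, a zinc finger protein, at 1.17 (1.09 to 1.27), Kcnj6, a potassium channel subunit, at 1.17 (0.995 to 1.39), and Olig1, a transcription factor of the oligodendrocyte lineage, at 1.18 (1.05 to 1.33). Kcnj6 did not pass (adjusted p = 0.24) until the score was a term, when its log2 fold change went from 0.23 to 0.44 (adjusted p = 0.00086). Olig1 (adjusted p = 0.096) and Olig2 (0.29, SE 0.09, adjusted p = 0.061) did not pass with edgeR, nor with the score as a term. Olig2 passed with DESeq2 (adjusted p = 0.0404) and with number blocks as terms (0.34, adjusted p = 0.0142).

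**Figure D2:**
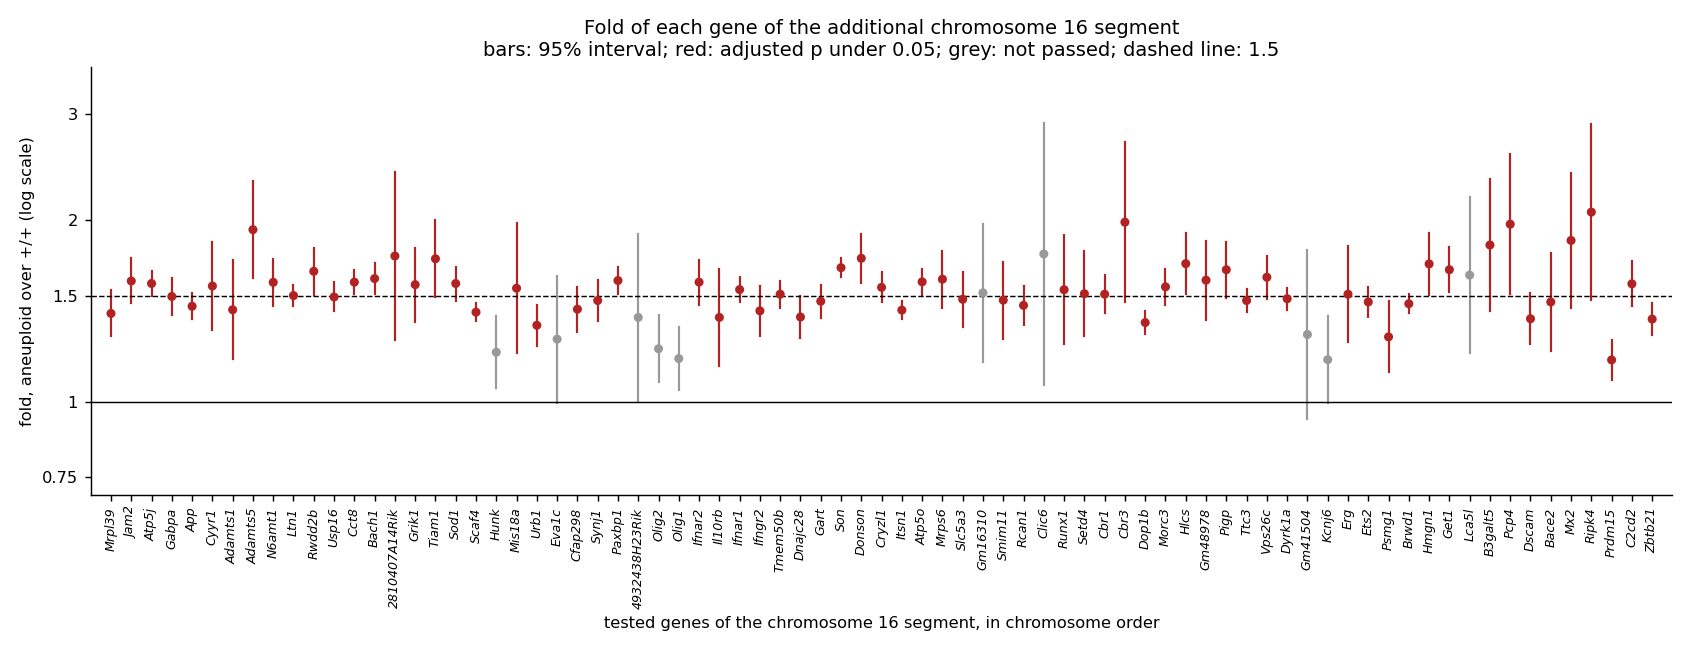
Fold of each of the 77 tested genes of the chromosome 16 segment (y axis, log scale, aneuploid over +/+, bars for the 95% interval) in chromosome order, with red for genes that passed and grey for those that did not. The folds lie between 1.17 and 2.06 around the dashed line at 1.5.

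The 2 segments that the deficiencies bring back to the usual copy number had folds near 1. From Lipi to Ncam2 (GRCm38 chr16:75540514-81626828) the fold per animal was 1.01 ± 0.0947 (SD, n = 20) in the aneuploid group and 1.02 ± 0.0704 (SD, n = 12) in +/+ (permutation p = 0.863), and 1 of 22 genes passed (4.55% called): Hspa13, a chaperone, at 49.3, 53.8 and 63.3 CPM in +/+ and 52.9, 62.6 and 74.4 CPM in the aneuploid libraries, a fold of 1.14 (1.08 to 1.21). From the start of chromosome 17 to Pde10a the fold per animal was 1.02 ± 0.0436 (SD, n = 20) and 0.9997 ± 0.0252 (SD, n = 12), with p = 0.0916, and 1 of 34 genes passed (2.94% called). That gene is Pisd-ps2, a pseudogene whose reads may be shared with near-identical copies, with a fold of 1.499 (1.21 to 1.857). Its log2 fold change was 0.92 in Ts65Dn;Df(17)2 and 0.13 in Dp(16)1/Df(16)8. By the background above, the chromosome 16 stretch is altered only in Dp(16)1/Df(16)8 and the chromosome 17 stretch only in Ts65Dn;Df(17)2. In those genotypes the folds per animal were 1.018 ± 0.117 (SD, n = 10) and 1.028 ± 0.0388 (SD, n = 10).

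Outside the 3 segments many genes changed a little. Of 15909 tested genes 623 passed (3.92% called), 233 higher (1.46%) and 390 lower (2.45%), with 3477 at an unadjusted p under 0.05 (21.9%). The median log2 fold change was 0.26 among the higher and -0.25 among the lower genes, which are folds of 1.2 and 0.843. Only 18 of the 623 differed by more than 2-fold, 9 in each direction. Among the 9 higher were Tyr, C87487, Gm49806 and A730009L09Rik, with pooled log2 fold changes of 6.15, 5.66, 4.67 and 2.17. Each of them also differed between the aneuploid genotypes, as described further on. They were higher in the genotype whose additional copy sits on a chromosome of its own, so their pooled values do not describe both genotypes alike. The median over all 15909 genes was 0.0028. A single gene, Col4a2, had every aneuploid library above every +/+ library (0.00629% of those tested), and 0 (0%) had every aneuploid library below.

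The count of 623 moved with added terms and with single libraries. With the striatal score as a term 139 genes passed, 119 of them shared with the 623, and the median size of the change of the 623 genes went from 0.251 (median SE 0.064) to 0.195 (median SE 0.059). When blocks of close animal numbers entered the model, 330 passed, 310 of them shared, and 103 genes passed in all 3 fits. The numbers fall into 5 blocks, which the labels do not call batches. Within the largest block of 17 libraries 27 genes passed, and the other blocks have too few libraries of 1 group or the other. Leaving out 1 library gave between 221 (without +/+ replicate 10) and 1471 (without +/+ replicate 11) genes.

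**Figure D3:**
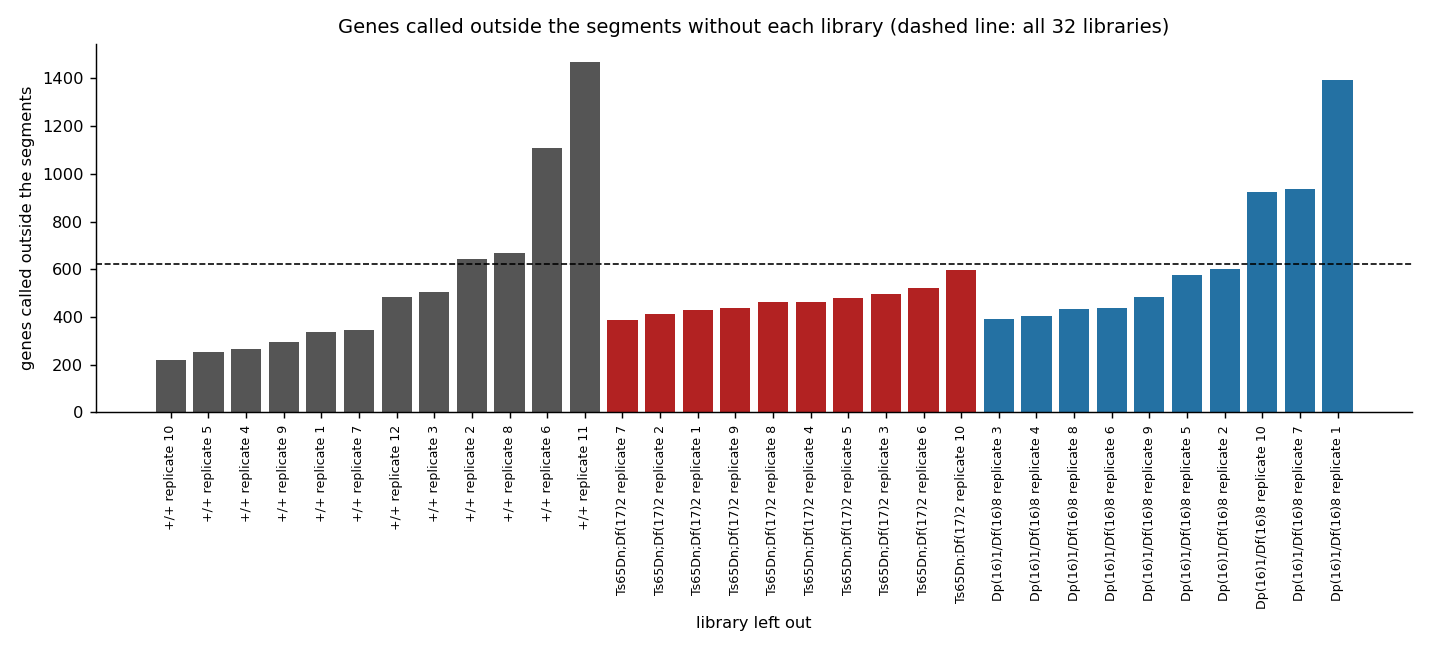
Number of genes called outside the segments (y axis) when each of the 32 libraries is left out in turn (x axis), colored by genotype, with a dashed line at the 623 of all libraries. The bars run from 221 to 1471, and those of the +/+ libraries spread the most.

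Leaving out 14 of the 32 libraries moved the count by more than 1.5 times. Without +/+ replicates 1, 4, 5, 7, 9 and 10, whose striatal scores lay between 2.68 and 4.51, the count was 335, 264, 252, 344, 296 and 221. Without +/+ replicates 6 and 11, with scores of 6.92 and 6.27, it was 1108 and 1471. Among the aneuploid libraries, leaving out Dp(16)1/Df(16)8 replicates 1 and 7, with scores of 3.94 and 4.78, gave 1395 and 937. Leaving out replicates 3 and 4 of that genotype gave 392 and 403, and leaving out Ts65Dn;Df(17)2 replicates 2 and 7 gave 414 and 386, all 4 with scores between 6.15 and 6.70. Some other libraries with low scores moved the count by less than 1.5 times. They were +/+ replicate 3 (score 3.73, count 506) and Dp(16)1/Df(16)8 replicates 5 (4.19, 578) and 10 (2.90, 922). The 922 lay close to that limit, on the same side as the counts without replicates 1 and 7 of that genotype. Libraries with high scores also moved the count by less than 1.5 times. Among them were +/+ replicate 8 (score 6.82, count 667), Dp(16)1/Df(16)8 replicate 9 (6.87, 483) and Ts65Dn;Df(17)2 replicate 9 (6.76, 438).

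Each genotype was also set against +/+ in a model with 3 genotypes. The 2 contrasts share the +/+ libraries, so their values are given side by side and no overlap is drawn from them. Ts65Dn;Df(17)2 had 572 genes outside the segments past the threshold (3.6% called) and Dp(16)1/Df(16)8 had 37 (0.233%). The 2 genotypes set directly against each other differed in 8 of 16042 genes (0.0499% called), 6 of them outside the segments (0.0377%), with 658 genes at an unadjusted p under 0.05 (4.1%). The gap between 572 and 37 is thus not itself a list of genes that differ between the genotypes. The striatal score was 6.10 ± 0.62 (SD, n = 10) in Ts65Dn;Df(17)2 and 5.51 ± 1.42 (SD, n = 10) in Dp(16)1/Df(16)8, and its part in that gap was not tested.

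The most certain change outside the segments was a rise of both chains of the common type IV collagen, the network-forming collagen of vascular and other basement membranes. Col4a2 ran at 70.8, 87.6 and 101 CPM in +/+ and at 102, 132 and 144 CPM in the aneuploid libraries. Its log2 fold change was 0.51 (SE 0.05, adjusted p = 2.3e-08), 0.53 in Ts65Dn;Df(17)2 and 0.49 in Dp(16)1/Df(16)8. Col4a1 ran at 56.5, 69.7 and 81.9 CPM in +/+ and at 80.8, 88.96 and 106 CPM in the aneuploid libraries, where the groups meet at their edges. Its log2 fold change was 0.41 (SE 0.05, adjusted p = 8.7e-07) and was 0.41 in each genotype. Neither value moved with the striatal score as a term (0.51 and 0.41), and both genes passed in all 32 fits that left out 1 library, in females and in males alone, and within the largest number block (0.50 and 0.36).

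Col4a1 and Col4a2 are neighbours on chromosome 8 (GRCm38 chr8:11198423-11312826 on the minus strand and chr8:11312805-11449287 on the plus strand). Their annotated starts are 21 bases apart and point away from each other. They lie on another chromosome than the additional genes. Whether counting used the strand is not given in the sources used here, so reads within these few shared bases cannot be told apart.

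Of 28 tested genes of the list 2 were higher, the pair above, and 1 was lower, Agrn, the proteoglycan agrin (-0.10, SE 0.03, adjusted p = 0.038), against 1.46% higher and 2.45% lower over all genes outside the segments. Agrn did not pass with the striatal score (-0.09, adjusted p = 0.104) or number blocks (-0.09, adjusted p = 0.0611) as terms, and passed in 17 of the 32 fits that left out 1 library. The median was 0.0846 against 0.0028 over all genes outside the segments. Nid2, a nidogen that links the collagen and laminin networks, had a value of 0.44 (SE 0.14, adjusted p = 0.070), Col18a1 one of 0.44 (SE 0.16, adjusted p = 0.092) and Hspg2, perlecan, one of 0.25 (SE 0.09, adjusted p = 0.11), and none of these passed. The laminin genes Lama2 and Lamc1, with values of -0.01 (SE 0.06) and 0.11 (SE 0.05), did not pass. Of 23 markers of endothelial and mural cells, the cells around which these membranes lie, 2 were higher: Kdr, the main VEGF receptor (0.48, SE 0.13, adjusted p = 0.031), and Slco1a4, an endothelial transporter (0.24, SE 0.07, adjusted p = 0.046). Kdr had 0.41 (adjusted p = 0.117) and Slco1a4 0.18 (adjusted p = 0.199) with the striatal score as a term. With number blocks as terms both passed, at 0.51 (adjusted p = 0.00064) and 0.26 (adjusted p = 0.033), while Slco1a4 passed in only 11 of the 32 fits that left out 1 library. Markers of meninges and fibroblasts, which also make these collagens, had 0 of 17 past the threshold and a median of 0.183 (edgeR; 3 higher and 1 lower at an unadjusted p under 0.05, 2 higher by DESeq2 and 0 by limma voom). Their mean log2 CPM over the list was 2.89, 3.42 and 3.87 in +/+ (lowest, median, highest) and 2.79, 3.71 and 4.05 in the aneuploid group. The mean log2 CPM over the endothelial and mural markers was 3.76, 3.99 and 4.41 in +/+ (lowest, median, highest). In the aneuploid group it was 3.85, 4.27 and 4.50. Of these 23 markers 19 had positive values, with a median of 0.133 (edgeR; 9 higher and 0 lower at an unadjusted p under 0.05, 4 higher by DESeq2 and 2 by limma voom). With the striatal score as a term 19 were positive, with a median of 0.0673. The part of either cell group in the rise of the collagens was not tested.

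**Figure D4:**
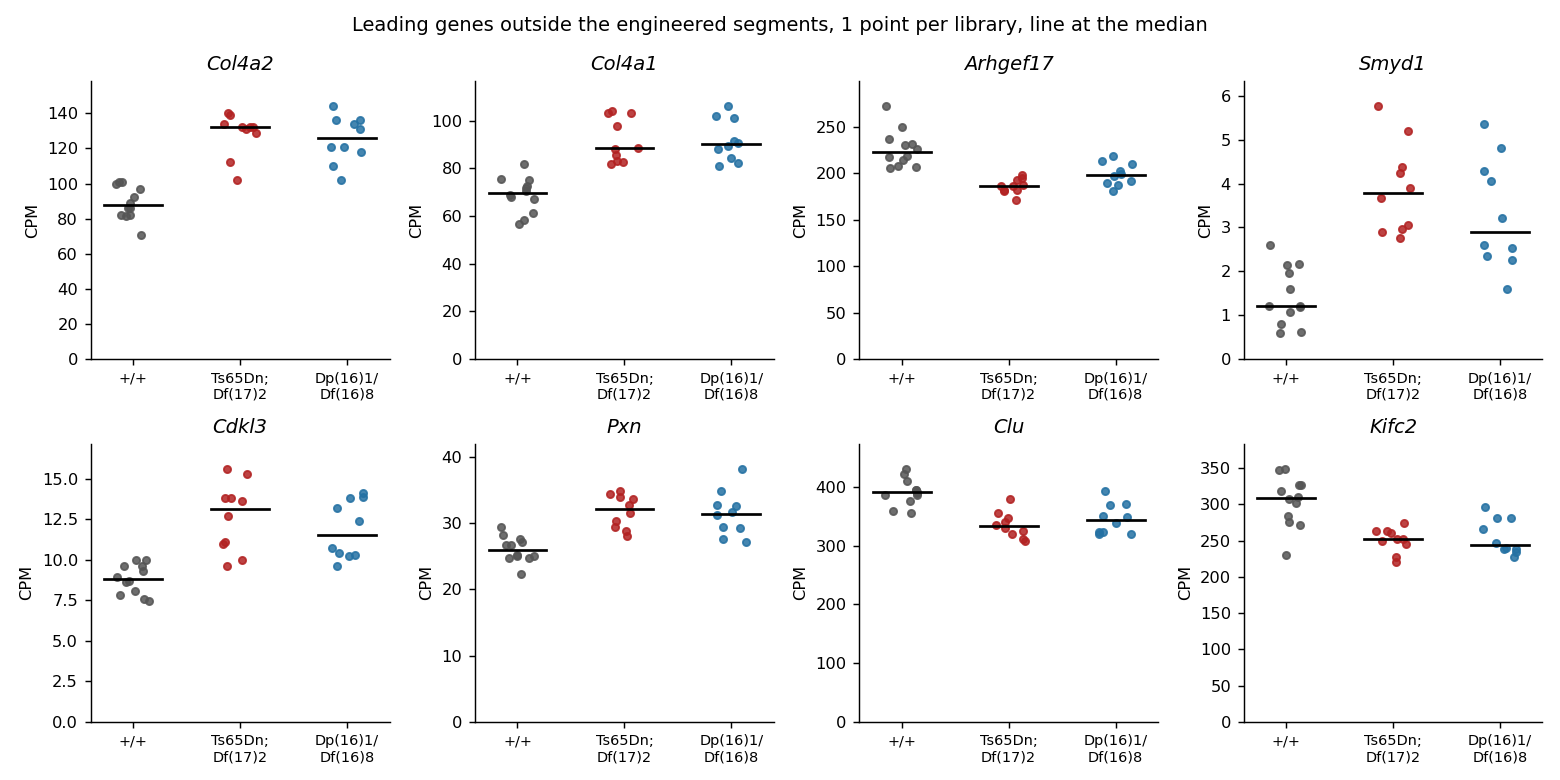
CPM of 8 leading genes outside the segments in each library (y axes from 0), by genotype, with a line at the median. For Col4a2 the 20 aneuploid libraries, at 102 to 144 CPM, lie above the 12 +/+ libraries, at 70.8 to 101 CPM, and the other 7 genes show a shift of the same direction in both genotypes with some overlap.

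Smyd1, Cdkl3, Pxn and Spp1 also rose. Smyd1, a lysine methyltransferase known from muscle, ran at 0.602, 1.201 and 2.604 CPM in +/+ and at 1.59, 3.45 and 5.76 CPM in the aneuploid libraries, so it was scarce in both. All 20 aneuploid libraries lay above the +/+ median, and its log2 fold change was 1.32 (SE 0.20, adjusted p = 7.4e-05), 1.43 in Ts65Dn;Df(17)2 and 1.19 in Dp(16)1/Df(16)8. Cdkl3, a kinase related to the cyclin-dependent kinases, went from a median of 8.82 to 12.5 CPM (0.47, SE 0.07, adjusted p = 0.00012). Pxn, paxillin, an adaptor of focal adhesions, went from 25.9 to 31.6 CPM (0.28, SE 0.05, adjusted p = 0.00033). Spp1, the secreted matrix protein osteopontin, went from 3.85 to 7.57 CPM (0.65, SE 0.13, adjusted p = 0.0027), and its value was larger, 0.76, with the striatal score as a term. Side by side, with the +/+ libraries shared, the values in Ts65Dn;Df(17)2 and Dp(16)1/Df(16)8 were 0.51 and 0.43 for Cdkl3, 0.28 and 0.27 for Pxn, and 0.68 and 0.62 for Spp1. Spp1 passed in Dp(16)1/Df(16)8 in the model with 3 genotypes (adjusted p = 0.043) but not when that genotype alone was fitted with +/+ (adjusted p = 0.135). In the pooled comparison all 4 passed with the score as a term, with the number blocks as terms, and in all 32 fits that left out 1 library.

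The fall with the smallest adjusted p was that of D10Wsu102e, a gene with a provisional symbol named here after its values were seen. It went from a median of 494.9 to 408.8 CPM (-0.30, SE 0.04, adjusted p = 3.8e-06) and passed with the striatal score (-0.29) and with number blocks (-0.28) as terms. The next falls were those of Arhgef17, Clu, Kifc2 and Cbs. Arhgef17, a guanine nucleotide exchange factor, ran at 206, 223 and 272 CPM in +/+ and at 171, 191 and 219.5 CPM in the aneuploid libraries, all of which lay below the +/+ median (-0.23, SE 0.04, adjusted p = 4.4e-05). Clu, clusterin, an extracellular chaperone made by astrocytes, went from a median of 391 to 337 CPM (-0.20, SE 0.03, adjusted p = 0.00041). Kifc2, a kinesin motor of neurons, went from 309.8 to 251 CPM (-0.27, SE 0.05, adjusted p = 0.001). Cbs, cystathionine beta-synthase, which opens the transsulfuration pathway, ran at 12.2, 17.8 and 19.2 CPM in +/+ and at 9.15, 11.97 and 17.5 CPM in the aneuploid libraries (-0.46, SE 0.08, adjusted p = 0.0011). Its value was -0.44 in Ts65Dn;Df(17)2 and -0.48 in Dp(16)1/Df(16)8. Each of these 4 passed with the striatal score as a term, at -0.21, -0.16, -0.21 and -0.48, and in all 32 fits that left out 1 library.

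Cbs is an orthologue of a human chromosome 21 gene that lies on mouse chromosome 17, outside the additional segment. Of 42 tested orthologues of that kind, which have the usual 2 copies in all the animals, 0 were higher and 3 were lower (1.46% and 2.45% over all genes outside the segments), and their median was 0.0232. The other 2 were Pcnt, pericentrin of the centrosome (-0.18, SE 0.05, adjusted p = 0.023), and Pwp2, a factor of ribosome assembly (-0.15, SE 0.04, adjusted p = 0.030). With the striatal score as a term Cbs passed, while Pcnt had -0.12 (adjusted p = 0.121) and Pwp2 -0.14 (adjusted p = 0.097). With number blocks as terms all 3 passed.

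After Tyr, described further on, and Smyd1, the largest rises of genes with established symbols were mostly in scarce transcripts. Nts, the peptide neurotensin, ran at 0.738, 4.27 and 20.7 CPM in +/+ and at 1.71, 14.5 and 25.5 CPM in the aneuploid libraries (1.26, SE 0.36, adjusted p = 0.039), and Pi15, a peptidase inhibitor, went from a median of 0.609 to 1.32 CPM (1.21, SE 0.30, adjusted p = 0.023). Dlx6os2, Krt9, Akr1c14, Rsad2, Wnk4, Pde3a and Adamts12 had values between 0.67 and 0.94 with adjusted p between 0.019 and 0.049. Of these 9 genes none passed with the striatal score as a term, but the values did not all shrink alike: Nts had 0.71, Krt9 0.43, Wnk4 0.48, Pde3a 0.44 and Dlx6os2 0.74, while Pi15 had 1.12, Akr1c14 0.69, Adamts12 0.64 and Rsad2 0.64. Of the 32 fits that left out 1 library, Nts passed in 17, Krt9 and Adamts12 in 10 each and Rsad2 in 9.

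The largest falls of such genes were also mostly in scarce transcripts. Cyp11a1, the enzyme of the first step of steroid synthesis, ran at 0.651, 1.73 and 3.84 CPM in +/+ and at 0, 0.704 and 1.83 CPM in the aneuploid libraries (-1.41, SE 0.33, adjusted p = 0.013). Tspan11, a tetraspanin, ran at 2.995, 6.51 and 15.8 CPM and at 0.803, 2.82 and 10.98 CPM (-1.19, SE 0.25, adjusted p = 0.0059). In each, all but 1 aneuploid library lay below the +/+ median while the ranges overlapped. Tcap, Adam33, Alox12b, Wnt10a, Psrc1, Npc1l1, Adra1d, Robo3 and Rgsl1 had values between -1.23 and -0.87 with adjusted p between 0.0068 and 0.047, and Lars2, the leucyl-tRNA synthetase of mitochondria, had -1.11 (SE 0.33, adjusted p = 0.047). Lars2 spread from 18.5 to 268 CPM in +/+ and from 17.1 to 71.2 CPM in the aneuploid group. Of these 12 genes only Lars2 passed with the striatal score as a term (-1.40, adjusted p = 0.022), but it passed in only 12 of the 32 fits that left out 1 library and not with limma voom (-0.67, adjusted p = 0.208).

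Interferon-stimulated genes leaned upward. These genes are switched on by the receptors whose genes lie in the chromosome 16 segment. Of 34 tested genes 5 were higher and 0 were lower (1.46% and 2.45% over all genes outside the segments), 33 had positive values, and the median was 0.255 against 0.0028 over all genes outside the segments.

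Ifit1, which binds foreign RNA, ran at 0.664, 1.47 and 2.53 CPM in +/+ and at 1.42, 2.23 and 5.53 CPM in the aneuploid libraries (0.65, SE 0.17, adjusted p = 0.029). Rsad2, the antiviral enzyme viperin, ran at 0.361, 1.15 and 2.60 CPM and at 0.739, 1.77 and 4.02 CPM (0.75, SE 0.22, adjusted p = 0.049). The call of Rsad2 was marginal: it passed in 9 of the 32 fits that left out 1 library, and not with limma voom (0.77, adjusted p = 0.0529), the mean of the genotype contrasts (0.73, adjusted p = 0.0516) or number blocks as terms (0.70, adjusted p = 0.0684). Lgals3bp, a secreted glycoprotein, and Trim25, a ubiquitin ligase of RNA sensing, also passed, with values of 0.47 (SE 0.12) and 0.37 (SE 0.10). Most of these transcripts were scarce, at a few CPM, and the ranges of the groups overlap in each. With the striatal score as a term 0 of the 34 passed, while 31 stayed positive with a median of 0.217. With number blocks as terms 4 passed. Microglia, a main source of such transcripts in brain, had 1 of 20 markers higher, the lysosomal protease Ctss (0.37, SE 0.08, adjusted p = 0.0058), against 1.46% over all genes outside the segments. The mean log2 CPM over the microglia markers was 3.40 to 4.08 in +/+ and 3.56 to 4.01 in the aneuploid group. The part of microglia in the rise was not tested.

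The promoters of Ifit1 and Rsad2, the second with a marginal call, are shown because, of the 4 raised genes with a promoter in the table used, these hold the core of the interferon-stimulated response element. The motif searched was GAAA, any 2 bases, then GAAA, on either strand in the 250 bases before the annotated start (RefSeq, GRCm38.p6). Capitals mark each match, which reads here as the other strand. The Ifit1 window is chr19:34640639-34640888 on the plus strand and the Rsad2 window is chr12:26456453-26456702 on the minus strand, both written 5′ to 3′ toward the gene.
Ifit1: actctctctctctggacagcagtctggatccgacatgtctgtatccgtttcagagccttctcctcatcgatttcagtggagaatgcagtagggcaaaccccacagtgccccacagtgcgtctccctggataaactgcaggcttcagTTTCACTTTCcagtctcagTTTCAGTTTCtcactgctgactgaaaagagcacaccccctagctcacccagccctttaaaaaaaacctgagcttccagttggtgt
Rsad2: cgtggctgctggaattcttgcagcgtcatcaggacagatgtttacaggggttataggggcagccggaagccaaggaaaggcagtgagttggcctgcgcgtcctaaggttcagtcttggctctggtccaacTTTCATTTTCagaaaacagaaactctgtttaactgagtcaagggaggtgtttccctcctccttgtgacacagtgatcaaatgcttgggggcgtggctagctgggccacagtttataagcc
The Ifit1 window holds 2 matches and the Rsad2 window 1. A match was held by 10 of 29 tested list genes that have a window (34.5%), against 331 of 10945 tested genes outside the segments that have one (3.02%). The list consists of genes known to respond to interferon, so that excess describes the list and not the aneuploid group. The windows of Lgals3bp and Trim25 hold none. A match describes the letters of the window and not binding.

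Of 15 markers of upper-layer neurons 0 were higher and 3 lower (2.45% lower over all genes outside the segments), with a median of -0.321. Rorb, a nuclear receptor of layer IV neurons, ran at 105, 154 and 194 CPM in +/+ and at 80.8, 109.7 and 196.5 CPM in the aneuploid libraries, and 19 of the 20 lay below the +/+ median (-0.43, SE 0.11, adjusted p = 0.023). Lamp5 (-0.58, SE 0.17) and Cux1 (-0.20, SE 0.06) also passed. Of 9 general markers of excitatory neurons Neurod2, a transcription factor, was lower (-0.52, SE 0.15, adjusted p = 0.043), and the median was -0.403. Deep-layer markers had 0 of 19 past the threshold and a median of -0.0734 (edgeR; 3 higher and 4 lower at an unadjusted p under 0.05, 0 by DESeq2 and by limma voom). With the striatal score as a term no marker of these 3 lists passed, and the medians of the upper-layer, general and deep-layer markers were -0.18, -0.174 and 0.0325. With number blocks as terms 1, 1 and 0 passed.

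Of 20 interneuron markers 3 were higher and 0 lower (1.46% higher over all genes outside the segments), with a median of 0.249. Of the 20 values 17 were positive and 3 negative. Adarb2, which marks interneurons from the caudal ganglionic eminence, ran at 22.9, 28.7 and 40.6 CPM in +/+ and at 25.9, 39.98 and 48.9 CPM in the aneuploid libraries (0.42, SE 0.08, adjusted p = 0.0037). The GABA synthesis gene Gad1 (0.36, SE 0.11, adjusted p = 0.049) and the noncoding Dlx6os1 (0.51, SE 0.14, adjusted p = 0.034) also passed. Gad1, Gad2 and the Dlx genes are expressed by striatal projection neurons as well. Among markers more specific to cortical interneurons, Sst had 0.12 (SE 0.05), Pvalb -0.57 (SE 0.19, adjusted p = 0.067) and Vip -0.37 (SE 0.22). None of these passed, and Pvalb and Vip are among the 3 negative values of the list. Adarb2 kept its call with the striatal score as a term (0.34, adjusted p = 0.020), while Gad1 had 0.16 (adjusted p = 0.194) and Dlx6os1 0.29 (adjusted p = 0.082). With that term 17 of the 20 values were positive, with a median of 0.14.

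Of 31 genes of presynaptic release 0 were higher and 3 lower (2.45% lower over all genes outside the segments), with 28 negative values and a median of -0.11. They were Bsn, bassoon of the active zone (-0.28, SE 0.08), Unc13a, which primes vesicles (-0.17, SE 0.05), and Napa, of SNARE disassembly (-0.17, SE 0.05). Of 24 postsynaptic scaffold genes 3 were lower, among them the scaffold Shank1 (-0.35, SE 0.10) and the exchange factor Kalrn (-0.30, SE 0.08). Of 24 glutamate receptor genes Gria1 (0.26, SE 0.08) and Grik2 (0.31, SE 0.09) were higher, against 1.46% over all genes outside the segments. Of 14 GABA receptor genes Gabrg1 (0.53, SE 0.15) was higher. None of these 8 genes passed with the striatal score as a term, where their values had the same sign and were smaller (between 0.14 and 0.31 for the receptors, and between -0.18 and -0.11 for the others). Grin2c, another glutamate receptor subunit, passed with the score as a term (-0.23, adjusted p = 0.03) but not without it (-0.14, adjusted p = 0.2). With number blocks as terms 0 of the 31 presynaptic genes and 0 of both receptor lists passed. Of the 24 postsynaptic scaffold genes 1, Kalrn, was lower with those terms (-0.26, adjusted p = 0.049). Immediate early genes, which neuronal activity induces, had 26 of 27 values negative with a median of -0.33, and 0 passed (edgeR; 10 lower at an unadjusted p under 0.05, 1 lower by DESeq2 and 0 by limma voom). Arc had the value furthest from 0, -0.62 (SE 0.28, adjusted p = 0.19). With the score as a term the median of the immediate early list was -0.165.

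Of 20 astrocyte markers 1 was higher, the water channel Aqp4 (0.21, SE 0.05, adjusted p = 0.023), and 5 were lower, among them Clu, Aldoc (-0.14, SE 0.03) and Fgfr3 (-0.17, SE 0.04), with a median of -0.0671, against 1.46% higher and 2.45% lower over all genes outside the segments. With the striatal score as a term 0 were higher and 1, Clu, was lower, while Aqp4 had 0.19 (adjusted p = 0.076), Aldoc -0.13 (adjusted p = 0.070) and Fgfr3 -0.14 (adjusted p = 0.103). Among 14 markers of oligodendrocyte precursors Lhfpl3 was higher (0.45, SE 0.13) and the proteoglycan Cspg5 lower (-0.14, SE 0.03), with 0.24 (adjusted p = 0.166) and -0.12 (adjusted p = 0.056) when the score was a term. Of 20 myelin genes 0 passed, with a median of 0.0309 (edgeR; 0 at an unadjusted p under 0.05, 0 by DESeq2 and by limma voom). Their mean log2 CPM over the list spread from 5.33 to 6.85 in +/+ and from 5.08 to 6.76 in the aneuploid group, so that single libraries differed by more than the groups did. Choroid plexus markers had 0 of 7 past the threshold (edgeR; 0 at an unadjusted p under 0.05, 0 by DESeq2 and by limma voom), with Ttr, their most abundant transcript, between 2.21 and 871.5 CPM in +/+ and between 1.34 and 564 CPM in the aneuploid libraries.

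Of 78 ribosomal protein genes 2 were higher, Rps24 (0.14, SE 0.03) and Rps4x (0.12, SE 0.03), with a median of 0.0169. For this list and those that follow, the shares over all genes outside the segments were 1.46% higher and 2.45% lower. Of 65 nuclear genes of the respiratory chain 2 were lower, Cox8a (-0.13, SE 0.03) and Ndufa2 (-0.18, SE 0.05), with a median of 0.00552. The 10 tested mitochondrially encoded genes had 0 past the threshold and a median of 0.137 (edgeR; 6 higher at an unadjusted p under 0.05, 2 by DESeq2 and 0 by limma voom). The 36 proteasome, 20 heat shock and 20 p53 target genes had 0 past the threshold, with medians of -0.013, -0.0152 and -0.0865 (edgeR; at an unadjusted p under 0.05, 3 higher and 3 lower, 1 and 1, and 2 and 4, by DESeq2 0, 0 and 1, and by limma voom 0 in each). Of 26 genes of the unfolded protein response 23 were negative and 1, the ubiquitin ligase Syvn1, passed (-0.19, SE 0.05, adjusted p = 0.027). Of 27 genes of cholesterol synthesis and transport 3 were higher: Hmgcs1, which makes HMG-CoA (0.18, SE 0.04, adjusted p = 0.022), Stard4, a sterol carrier (0.20, SE 0.05, adjusted p = 0.023), and Msmo1, a sterol-modifying enzyme (0.15, SE 0.04, adjusted p = 0.045). Hmgcs1 lay above the +/+ median in all 20 aneuploid libraries, and it and Stard4 passed with the striatal score as a term (0.20 and 0.23), while Msmo1 had 0.15 (adjusted p = 0.103). With that term none of Rps24 (0.11), Rps4x (0.09), Cox8a (-0.13), Ndufa2 (-0.19) and Syvn1 (-0.14) passed.

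Of 48 axon guidance genes 3 semaphorins were higher, Sema6d (0.26, SE 0.06), Sema3d (0.26, SE 0.07) and Sema6a (0.22, SE 0.06), and 3 genes were lower, among them Ephb3 (-0.52, SE 0.14). The shares over all genes outside the segments were 1.46% and 2.45%. Only Sema3d (0.29, adjusted p = 0.0425) passed of these 48 with the striatal score as a term, while Sema6d and Sema6a each had 0.17 and Ephb3 -0.31. With number blocks as terms 3 were higher and 0 lower.

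**Figure D5:**
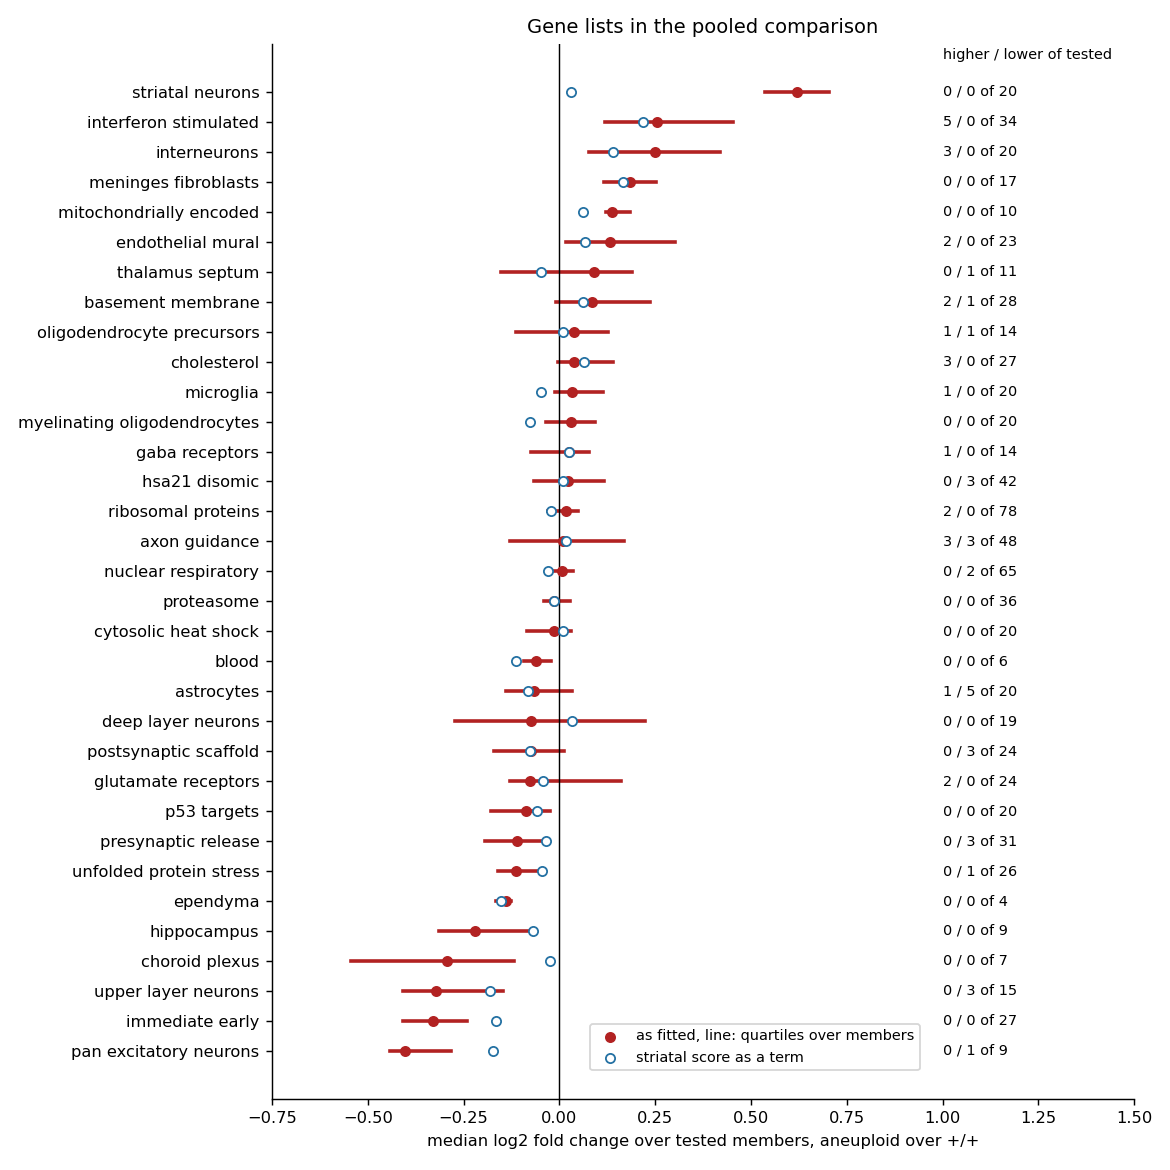
Median log2 fold change (x axis) of each gene list, with red points and quartile lines for the fit of the 2 groups and open points for the fit with the striatal score as a term. The counts at the right are genes higher and lower of those tested. Striatal markers go from 0.62 to 0.0309 with the score as a term, a fall that is built in because the score is their mean. Interferon-stimulated genes go from 0.255 to 0.217.

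For 8 genes the pooled group was not of 1 level. Tyr, tyrosinase, the enzyme of melanin synthesis on chromosome 7, had 8 counts over the 12 +/+ libraries, 1178 over the 10 Ts65Dn;Df(17)2 libraries (75 to 168 in each) and 38 over the 10 Dp(16)1/Df(16)8 libraries (2 to 7 in each). Every Ts65Dn;Df(17)2 library thus lay above all others. Of the other 7, all but Pisd-ps2 were chosen after their values were seen, and 4 lie beside the ends of the segments. C87487 and Gm49806, noncoding transcripts at GRCm38 chr17:9189126-9223664 and chr17:9246550-9248548, just beyond Pde10a, had 1 and 5 counts in +/+, 213 and 287 in Ts65Dn;Df(17)2, and 5 and 2 in Dp(16)1/Df(16)8. A730009L09Rik at chr16:84515121-84523888, before Mrpl39, had 30, 204 and 51 counts, and B230307C23Rik at chr16:97997315-98031801, after Zbtb21, had 716, 1003 and 646. The pseudogenes Pisd-ps2 and Gm21926 at the start of chromosome 17 had 411, 716 and 370 counts and 1016, 1651 and 791 counts. Gm28437, a pseudogene on chromosome 1, went the other way, with 253 counts in +/+, 54 in Ts65Dn;Df(17)2 and 376 in Dp(16)1/Df(16)8.

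By the sexes as labelled, 0 genes of 16042 passed the test of the interaction between aneuploidy and sex (0% called, edgeR; 969 at an unadjusted p under 0.05, 6.04%; 0 by limma voom). Tested alone, the females gave 14 genes outside the segments and the males 23, with 47 and 50 in the chromosome 16 segment. For Col4a2 the log2 fold change was 0.53 in females and 0.49 in males, and for Cbs -0.35 and -0.58.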

How the data were processed

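The libraries were built from rRNA-depleted total RNA, per the labels' protocols. The tools named are STAR 2.7.9a, Subread 1.6.4 (featureCounts) and bcl2fastq 2.20, per the submitters' processing notes. The strand setting and annotation release are not given in the sources used here. The authors deposited raw counts of 55401 genes, and coordinates were taken by identifier for 55141 of them (GRCm38).

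All tests across genes ran in edgeR 4.0.16 (R 4.3.3). The filter filterByExpr with genotype as group kept 16042 genes (99.7% of the counts), and TMM factors scaled the libraries. A quasi-likelihood model with terms for group and sex was fitted to all 32 libraries, and p was adjusted over all genes (Benjamini-Hochberg, threshold 0.05). A standard error is the log2 fold change divided by the square root of F. Scores are means of log2 CPM with a prior count of 2. DESeq2 1.42.0 and limma 3.58.1 were alternatives. The scripts were tested on simulated counts. Segment bounds come from background knowledge, and 15909 tested genes lie outside the segments. The members, the lists and the rule for named genes were chosen with earlier results of these data known. That rule names, outside the segments and without pseudogenes or provisional symbols, the 12 highest and 12 lowest passing log2 fold changes at a mean log2 CPM of 0 or more, the 8 further genes of smallest adjusted p, up to 4 passing members of each list (or 2 not passing), and listed genes of the chromosome 16 segment with its 3 highest and 3 lowest folds, and up to 5 genes that differ between the genotypes. Other genes named as not passed are list members chosen after their values were seen. The libraries carry separate animal numbers, and no label states separate litters. PCR reads without molecular identifiers are not independent molecules. Some items that the rule names are not reported here.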

Additional observations from a re-analysis of the deposited data

Results flagged for a closer look

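Within a genotype of 10 libraries, a library was noted where its gap to the nearest other, as a share of the group's range in log2 CPM, exceeded the 95% critical value of Dixon's test, which chance gives in about 1 in 20 groups. Of 320 groups checked, 22 met this, all of them for named genes. The 320 also include the striatal score and the chromosome 16 segment fold. Dp(16)1/Df(16)8 replicate 1, which has a low striatal score (3.94), gave 11 of them. It was the highest library for Lamp5 (7.42), Ier5 (6.93), Napa (7.31), Kalrn (10.1) and Ephb3 (5.13), and the lowest for Wnk4 (0.977), Lhfpl3 (4.13), Gria1 (8.51), Tiam1 (7.84), Slc5a3 (7.27) and Hlcs (4.39). Replicate 4 of that genotype was the highest for Lgals3bp (4.5), Ifit1 (2.53) and Sema6a (6.58).

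In the Ts65Dn;Df(17)2 group, replicate 5 was the lowest for Adamts12 (-0.0935), replicate 4 the lowest for Slco1a4 (5.4) and Pisd-ps2 (2.6) and the highest for Bace2 (3.63), replicate 2 the lowest for Pwp2 (4.28) and Dnajc28 (3.67), replicate 1 the lowest for Usp16 (5.02) and replicate 3 the lowest for Psmg1 (2.26).

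The aneuploid genotypes differed from each other in 8 genes (edgeR's quasi-likelihood F test). The log2 difference, freestanding chromosome minus duplication, was 4.75 for Tyr, 4.96 for C87487, 6.36 for Gm49806, 1.83 for A730009L09Rik, 0.48 for B230307C23Rik (adjusted p = 0.028), 0.78 for Pisd-ps2, 0.90 for Gm21926 and -2.92 for Gm28437. For C87487 and Gm49806 the fitted size depends on the prior count, since the duplication group had 5 and 2 counts.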

How the results depend on the processing

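The chromosome 16 segment kept between 47 and 69 called genes, and its fold per animal between 1.504 and 1.523, in all the alternatives run. The count outside the segments, 623, was within 1.5 times of that with RLE factors (626), library totals (618), TMM from genes outside the segments (606), genes of 1 CPM or more (636), limma voom (599), the mean of the genotype contrasts (608), no sex term (440), without the library that goes against its sex label (603) and with Ts65Dn;Df(17)2 against +/+ only (845). It moved to 277 with no count filter, 975 with DESeq2, 139 with the striatal score, 330 with number blocks, 367 without the animals numbered below 30000, 22 with Dp(16)1/Df(16)8 against +/+ only, 14 with females and 23 with males, and 27 within the largest number block, an alternative chosen after seeing the data. The 3 alternatives for the direct comparison of the genotypes, chosen likewise, gave 7, 7 and 8 genes in place of 8. Leaving out each library gave 221 to 1471, and 63 to 69 called genes in the segment. The striatal score's difference passed with the median over markers (0.88 in place of 0.92). Of 126 named genes that passed, 64 passed with the striatal score and 96 with number blocks, and none reversed its direction in any fit. The 126 include genes of the chromosome 16 segment. Of 47 listed genes of that segment 44 passed in the main fit, 44 with the striatal score and 43 with number blocks. Outside the segments 119 of the 623 genes passed with the striatal score and 310 with number blocks. No paired analysis was possible because the replicate numbers only follow the order of the labels.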
